A study of Drosophila melanogaster with 6 samples.

Results

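The genes described here encode peritrophins, mucins and mucin-related proteins of the Drosophila melanogaster gut. They are Peritrophin-A, Peritrophin-15a, Peritrophin-15b, Crys, Muc68D, Muc68E, Muc55B, Mur29B, Mur18B and Muc18B. They were chosen by symbol, and all 10 were found among the 17411 genes of the count tables. Crys is Drosocrystallin, listed under its older symbol dcy.

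The peritrophic matrix is a sheet of chitin fibres and proteins that lines the midgut lumen and keeps food particles, microbes and toxins away from the epithelium. In the adult fly it is laid down mainly at the proventriculus, at the front of the midgut, and moves backwards with the food. Peritrophins are secreted proteins that bind chitin through cysteine-rich domains, whereas mucins carry long stretches of serine and threonine that are decorated with sugars. Loss of Drosocrystallin is known to leave the matrix thinner and more permeable and to make flies more sensitive to ingested bacterial pathogens.

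The libraries were polyA-selected RNA-seq of Mex-Gal4>9G8RNAi flies, here called 9G8-RNAi, and of Mex-Gal4>GFPdsRNA flies, here called control. Each group held 3 libraries with the replicate letters A, B and D. Both groups carried the driver Mex-Gal4, which is active in enterocytes, the cells that absorb nutrients in the midgut. It drove either RNAi against the splicing factor 9G8 or a double-stranded RNA against GFP. The labels give no age or sex. They do not say whether the libraries of a group came from separate flies, and the p-values then cover only the spread between these libraries, which may be technical. The tissue of the 9G8-RNAi libraries is labelled as intestines and that of the controls as fat bodies, and the series text names a yolk driver instead of Mex-Gal4. By these labels tissue goes with group, so that the effects of tissue and of RNAi on the differences below cannot be told apart. Every library held midgut transcripts, with the trypsin gene alphaTry at 25203 CPM of total counts or more (CPM being read counts scaled to library size). Of the 8 fat body markers none was at 0 in all libraries, and their summed level was 114 to 488 CPM in 9G8-RNAi and 83.2 to 500.3 CPM in the controls. Most of it came from the yolk protein genes, with Yp3 at 34.7 CPM or more in every library, whereas the storage protein gene Lsp2 was at 0.102 CPM or less.

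Total counts lay between 26216430 and 66562756 per library. The target gene x16, which encodes 9G8, overlapped between groups, with a log2 fold change of -0.53 ± 0.46 (SE). Its edgeR adjusted p was 0.918. Control library A stood apart from the other libraries in muscle markers and in the summed markers of hindgut and of trachea and cuticle. The 12 muscle markers, of which none was at 0, summed to 6740 CPM of total counts there, against 303 and 437 in the other controls and 338 to 682 in 9G8-RNAi. The 4 hindgut markers, with none at 0, summed to 163 CPM there, against 33.6 and 62.5 CPM in the other controls and 54.5 to 86.2 CPM in 9G8-RNAi. Among them byn, which specifies the hindgut, measured 74.1 CPM there and at most 1.39 CPM elsewhere. The high sum thus rested largely on byn. Of the 4 hindgut markers 3 had log2 fold changes above 0, with a median of 0.32 over the 4. The 7 markers of trachea and cuticle summed to 376 CPM in control library A and at most 8.62 CPM elsewhere. Not all of them were high there. The markers serp, verm and kkv stood at 1.37, 1.26 and 0.458 CPM in that library, against at most 1.17, 0.901 and 0.255 CPM elsewhere. Markers of the Malpighian tubule, the renal organ, differed in another way. All 5 had log2 fold changes above 0, with a median of 0.84 (0.94 without control library A) and 3 with an unadjusted edgeR p under 0.05, against 4.53% of all tested genes, and 0 were called. In TMM-scaled CPM, 8.59% of all tested genes did not overlap between groups. Irk3, salt and ZnT35C did not overlap either, at means of 49.6, 133 and 10.9 in 9G8-RNAi and 15.1, 43.9 and 6.13 in the controls. In CPM of total counts all of them overlapped, and the 5 genes summed to 314 to 578 CPM in 9G8-RNAi and 208 to 685 CPM in the controls. The part of these tissues in the differences below was not tested. The tissue is a mixture of cell types, so that fewer cells of a type and less RNA per cell cannot be told apart.

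Levels were first compared between the genes as CPM of total counts per kilobase of exon, which allows for their different lengths. Peritrophin-15a (FBgn0040959, 2L:8395665-8396096, minus strand, BDGP6) was the most abundant of the 10 in all 6 libraries. It is a small gene of 361 exonic bases in 2 exons and encodes a short chitin-binding protein. It measured 6930, 5652 and 4095 per kilobase in 9G8-RNAi libraries A, B and D, against 2017, 3272 and 2785 in control libraries A, B and D. By this measure it ranked between 34 and 65 among all genes of a library.

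Its neighbour and paralogue Peritrophin-15b (FBgn0040958, 2L:8394446-8394940, minus strand) had 0 counts in every library, although only 724 bases separate the genes. A count of 0 allows up to 3 counts in a library, or 0.045 to 0.114 CPM of total counts. Per exonic base Peritrophin-15a was therefore at least 7545-fold higher than Peritrophin-15b in control library A, where the bound was lowest, and at least 38887-fold higher in 9G8-RNAi library D, where it was highest. The exons of Peritrophin-15b overlap those of an antisense RNA gene, asRNA:CR45343, and reads shared by both could have been left uncounted.

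The mucin-related genes Mur18B (FBgn0030999, X:19213254-19214938, plus strand) and Mur29B (FBgn0051901, 2L:8352187-8355172, plus strand) followed. Mur18B measured 59.8, 136 and 71.6 per kilobase in 9G8-RNAi libraries A, B and D and 65.2, 69.5 and 41.6 in the controls. Mur29B measured 52.5, 51.8 and 70.2 in 9G8-RNAi, against 448, 149 and 55.8 in the controls. Mur18B ranked above Mur29B in the 3 9G8-RNAi libraries and below it in the 3 controls, so their order was not fixed.

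A contrast between neighbours was also seen at Mur18B. Muc18B (FBgn0031000, X:19215515-19216660, plus strand), a mucin gene in a single exon that starts 576 bases beyond the end of Mur18B, had 1, 6 and 18 counts in 9G8-RNAi and 41, 10 and 3 counts in control libraries A, B and D. In the 4 libraries with more than 3 counts of Muc18B, Mur18B was 47.8-fold to 1114-fold higher per exonic base, and the lowest value was again in control library A. Peritrophin-A (FBgn0022770, X:20244647-20248203, plus strand), a chitin-binding protein gene next to obst-A, had 36 counts over all libraries, between 1 and 14 in each. Muc18B and Peritrophin-A, like Peritrophin-15b, did not pass the filter on low counts, which left 7 of the 10 genes tested.

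Muc68E, Crys and Muc55B lay between these extremes, and their ranges overlapped. Muc68E (FBgn0053265, 3L:11967343-11972979, minus strand), a long mucin gene of 5578 exonic bases, measured 3.60 to 12.2 per kilobase over the 6 libraries. The range was 1.11 to 9.46 for Crys (FBgn0005664, 2L:11944129-11947131, plus strand) and 1.62 to 5.52 for Muc55B (FBgn0034294, 2R:18050019-18052107, minus strand). Muc68D (FBgn0036203, 3L:11767299-11772157, minus strand) had the widest range of the tested genes as a ratio of highest to lowest, from 0.029 to 8.20 per kilobase. Muc68D and Muc68E lie 195 kb apart on the same arm.

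**Figure D1:**
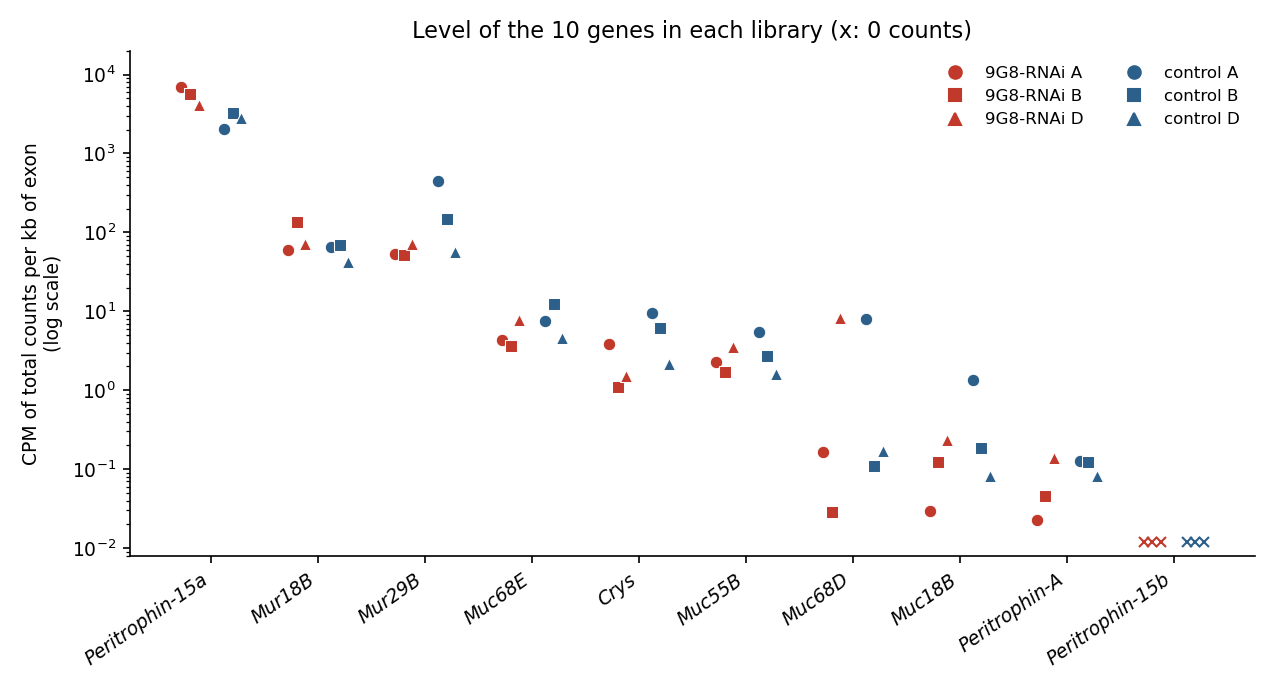
CPM of total counts per kilobase of exon (log scale) of the 10 genes in each library, with red for 9G8-RNAi, blue for control and 1 symbol for each replicate letter. Peritrophin-15a stands highest in every library, Peritrophin-15b is at 0 throughout (crosses, drawn at an arbitrary height), and Muc68D is high in 9G8-RNAi library D and control library A.

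The groups were then compared with edgeR's quasi-likelihood test over 9285 genes, on CPM values scaled by trimmed mean of M values (TMM). Of the 7 tested genes 0 had an adjusted p under 0.05, where 0.118% of all tested genes did. With limma-voom 0 passed as well, where it called 0.0431% of all tested genes. DESeq2 also called 0, where it called 1.14% of all genes it tested, but it gave no p for Muc68D. The log2 fold change was above 0 for 3 and below 0 for 4, where 55.7% of all tested genes were below 0. Its median was -0.11, against -0.07 over all tested genes. The only 1 of the 7 with an unadjusted edgeR p under 0.05 was Mur29B, where 4.53% of all tested genes were under it.

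Mur29B had the most negative fold change of the 7. It measured 116, 115 and 113 TMM-scaled CPM in 9G8-RNAi libraries A, B and D, against 502, 254 and 165 CPM in control libraries A, B and D. The groups did not overlap, and the 9G8-RNAi values lay close together while the controls were spread widely, with means of 115 ± 1.27 and 307 ± 175 CPM (SD, n = 3). It was the only 1 of the 7 whose groups did not overlap in this measure, where 8.59% of all tested genes did not overlap and 3.78% did so with lower values in 9G8-RNAi. The log2 fold change was -1.42 ± 0.46 (SE), or 0.374 times control (95% interval 0.181 to 0.772), and it did not pass over all genes (unadjusted p 0.014, edgeR adjusted p 0.813). The DESeq2 adjusted p was 0.099.

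The library with the highest Mur29B was control library A, which also stood highest in the muscle markers and in byn. Without that library the log2 fold change of Mur29B was -0.89, with an edgeR adjusted p of 0.701. In CPM of total counts the groups overlapped, with 98.9, 97.7 and 132 CPM in 9G8-RNAi and 844, 282 and 105 CPM in control libraries, since control library D then lay below 9G8-RNAi library D. The log2 fold change stayed below 0 under every one of the 14 alternatives run, from -1.90 with total counts only to -0.89.

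Peritrophin-15a had the most positive fold change. It measured 2928, 2408 and 1266.5 TMM-scaled CPM in 9G8-RNAi and 433, 1066 and 1583 CPM in control libraries A, B and D. The groups overlapped, because control library D was above 9G8-RNAi library D. The log2 fold change was 1.10 ± 0.59 (SE), or 2.14-fold with a 95% interval from 0.838 to 5.48, with an edgeR adjusted p of 0.918. In CPM of total counts the values were 2502, 2040 and 1478 against 728, 1181 and 1005, and the groups did not overlap, as for 2.5% of all tested genes that were higher in 9G8-RNAi by this measure. The call did not change, with an edgeR adjusted p of 0.991 on total counts (unadjusted p 0.018). Without control library A, the lowest of the 6, the log2 fold change was 0.69.

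Mur18B was above 0 with a wide interval. It measured 113, 259 and 99.0 TMM-scaled CPM in 9G8-RNAi and 62.6, 101 and 106 CPM in control libraries. Library B of 9G8-RNAi was highest, and library D of 9G8-RNAi lay within the range of the controls. For Mur18B the log2 fold change was 0.80 ± 0.46 (SE), and the edgeR adjusted p was 0.918. Without 9G8-RNAi library B the log2 fold change was 0.24.

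Crys, the gene of Drosocrystallin, measured 10.2, 2.96 and 2.93 TMM-scaled CPM in 9G8-RNAi and 12.7, 12.7 and 7.55 CPM in control libraries. Library A of 9G8-RNAi lay within the range of the controls, and the other 9G8-RNAi libraries lay below it. The log2 fold change was -1.05 ± 0.53 (SE), or 0.484 times control (95% interval 0.209 to 1.12), with an edgeR adjusted p of 0.918. Leaving out single libraries gave values from -1.89, without 9G8-RNAi library A, to -0.75, without 9G8-RNAi library D, and the adjusted p was at least 0.417.

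The mucin gene Muc68E measured 28.4, 23.7 and 37.1 TMM-scaled CPM in 9G8-RNAi and 25.2, 61.6 and 40.5 CPM in control libraries. The groups overlapped, with a log2 fold change of -0.51 ± 0.39 (SE) and an edgeR adjusted p of 0.918. In TMM-scaled CPM Muc55B was the steadiest of the tested genes. It measured 4.85, 3.59 and 5.43 CPM in 9G8-RNAi and 5.92, 4.44 and 4.59 CPM in control libraries, a log2 fold change of -0.11 ± 0.28 (SE) with a 95% interval from -0.76 to 0.54 and an edgeR adjusted p of 0.953. The standard deviation of its log2 CPM over the 6 libraries was 0.248, against a median of 0.502 over all tested genes, of which 12.2% had a smaller one. In CPM of total counts Muc55B was not the steadiest. Its highest value was then 3.42-fold its lowest, against 3.26-fold for Mur18B and 3.40-fold for Muc68E.

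**Figure D2:**
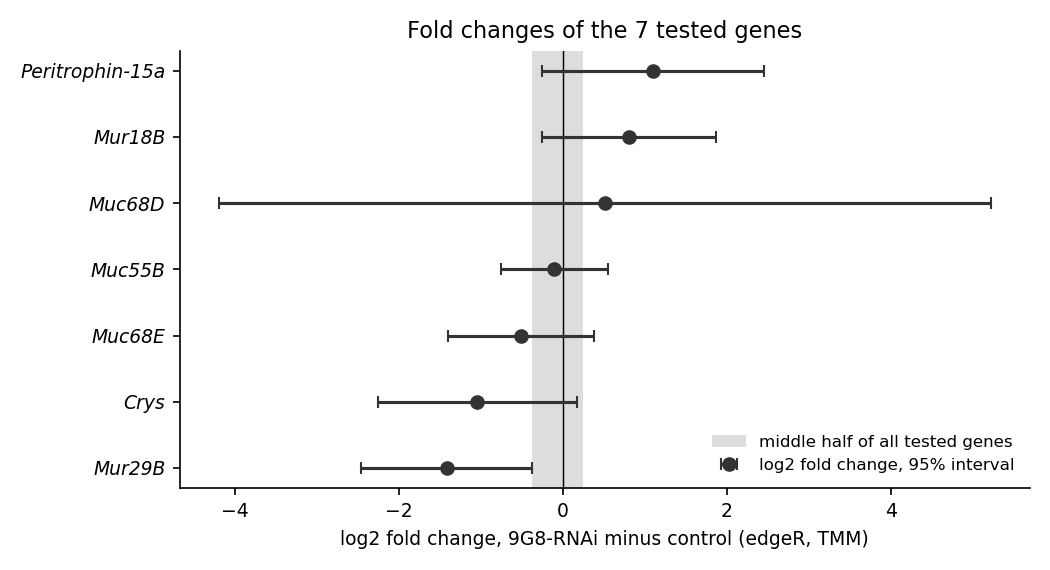
Log2 fold changes (9G8-RNAi minus control, edgeR on TMM-scaled counts) of the 7 tested genes with 95% intervals that are not adjusted for the number of genes tested, and in grey the middle 50% of all tested genes. Mur29B at -1.42 has the only interval that leaves out 0, and that of Muc68D runs from -4.20 to 5.22.

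Muc68D differed between libraries far more than between groups. It had 23, 6 and 2620 counts in 9G8-RNAi libraries A, B and D and 1001, 25 and 26 counts in control libraries A, B and D. In TMM-scaled CPM these were 0.915, 0.165 and 33.7 against 22.7, 0.475 and 1.28. One library of each group was thus high and the other 4 were low. The log2 fold change was 0.51 ± 1.96 (SE), and the edgeR adjusted p was 0.968. It turned to -3.96 without 9G8-RNAi library D and was 3.70 without control library A. The standard deviation of its log2 CPM over the 6 libraries was 2.99, larger than that of 99.8% of tested genes.

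The 3 genes with the profile most like that of Muc68D were CG34220, CG3906 and CG34324, out of 5483 genes compared. Likeness was the root mean square difference between log2 CPM profiles centred on their means, over the 6 libraries, and measured 0.472, 0.660 and 0.883. CG34220 was the only gene within 0.5. It measured 7.41, 0.581 and 194 CPM of total counts in 9G8-RNAi and 141, 2.13 and 3.51 CPM in control libraries A, B and D. CG3906 measured 45.7 CPM in 9G8-RNAi library D and 62.4 CPM in control library A, and at most 3.47 CPM elsewhere. For CG34324 the values were 91.0 and 90.5 CPM in the same libraries and at most 7.51 CPM elsewhere. They were chosen for this likeness, which includes the libraries in which they were high.

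Pgant4, a glycosyltransferase gene that starts mucin-type O-glycans and is known to be needed for a normal peritrophic matrix in the larva, was filtered out as a low gene but showed the same libraries on top. It measured 1.59 CPM of total counts in 9G8-RNAi library D and 2.59 CPM in control library A, and at most 0.170 CPM elsewhere. It was picked out of its list after its values were seen.

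**Figure D3:**
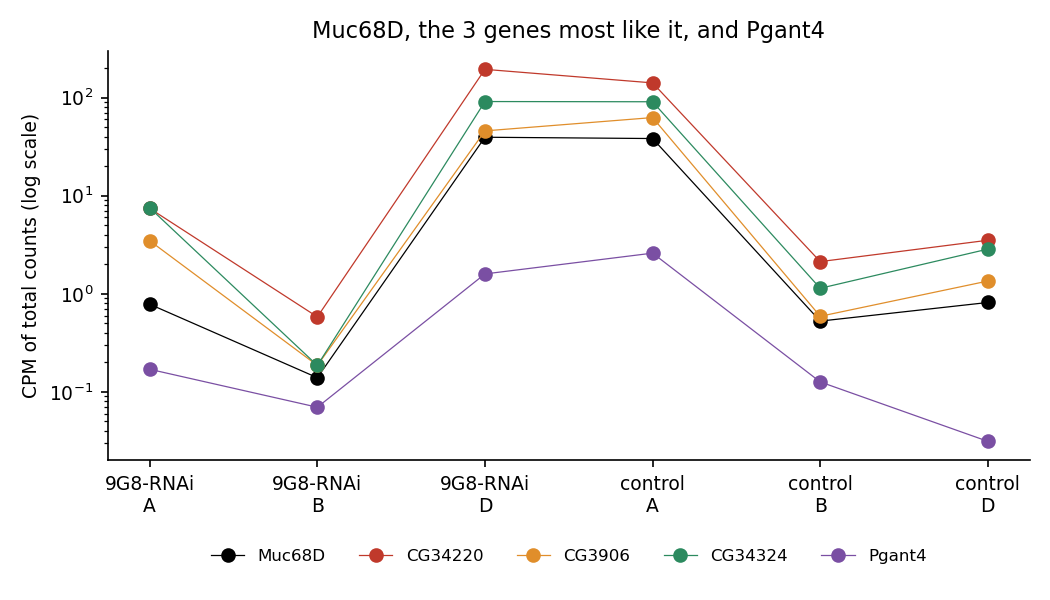
CPM of total counts (log scale) in the 6 libraries for Muc68D, the 3 genes whose profile was most like it, and Pgant4, with lines that only join the points of 1 gene. All 5 genes are highest in 9G8-RNAi library D and control library A, where Muc68D stands at 39.4 and 38.2 CPM.

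The genes most like the other members had closer profiles. Many genes lay near some of these members, however. Out of 5483 genes compared, 1839 were within 0.5 of Muc68E, 808 of Mur18B and 342 of Peritrophin-15a. The number was 103 for Mur29B and 12 for Crys. Nearest to Muc68E were the alkaline phosphatase genes Alp9 and Alp10 and the epoxide hydrolase gene Jheh3, at root mean square differences of 0.043, 0.058 and 0.112. Alp9 measured 154, 131 and 285 CPM of total counts in 9G8-RNAi and 264, 421 and 173 CPM in control libraries, with control library B highest, as for Muc68E. For Peritrophin-15a the nearest were Alg14, of N-glycan precursor synthesis, CG9672 and the trypsin gene zetaTry, at 0.135 to 0.142. Those for Mur29B were the glypican gene dlp, CG10912 and the splicing regulator gene mbl, at 0.235 to 0.260, and CG10912 reached 1676 CPM of total counts in control library A against 157 to 581 CPM elsewhere. Mur18B was nearest to CG12321, Fnta, a farnesyltransferase subunit gene, and CG32444, at 0.156 to 0.179. The nearest to Crys, CG8950, CG15534 and the chaperone gene DnaJ-1, were farther away, at 0.384 to 0.401. The mean of Muc55B was below the 5 CPM asked for.

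Within a library the ratio of 2 genes does not depend on how the library is scaled. Among the 21 pairs of tested genes 5 had ratios that did not overlap between groups, and the pairs share genes. Of all pairs of tested genes with a mean of at least 5 CPM, 7.74% did not overlap. The pairs with Muc55B, whose mean was below 5 CPM, are among the 21 but fall outside that background. Mur29B over Mur18B, per exonic base, was 0.878, 0.382 and 0.981 in 9G8-RNAi, against 6.87, 2.15 and 1.34 in control libraries A, B and D. Peritrophin-15a over Mur29B was 132, 109 and 58.3 in 9G8-RNAi, against 4.50, 21.9 and 49.9 in the controls. Mur29B was thus lower relative to Mur18B and Peritrophin-15a in each 9G8-RNAi library than in any control. Peritrophin-15a over Crys ran from 1801 to 5090 in 9G8-RNAi and from 213 to 1313 in the controls. Muc55B over Mur29B, from 0.033 to 0.050 against 0.012 to 0.029, and Muc68E over Mur18B, from 0.027 to 0.108 against 0.111 to 0.176, were the remaining ones. The pairs were singled out after their values were seen, and a ratio shows unequal change without telling which gene changed.

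**Figure D4:**
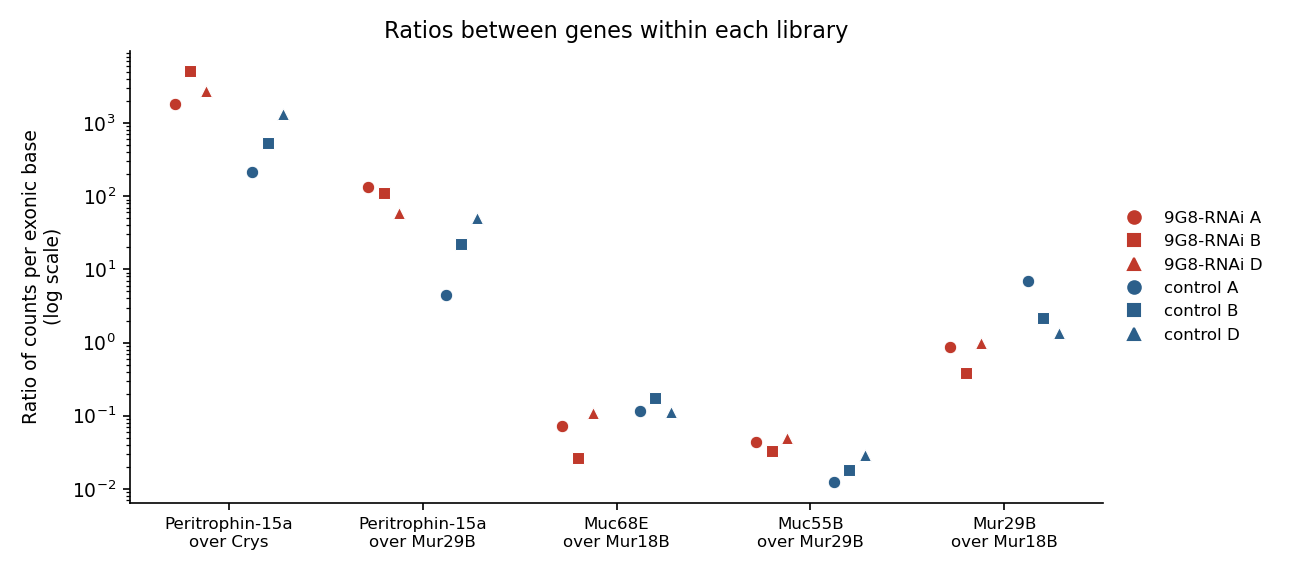
Ratio of counts per exonic base (log scale) for the 5 pairs of genes whose ratios do not overlap between groups, in red for 9G8-RNAi and blue for control. Mur29B over Mur18B lies below 1 in the 9G8-RNAi libraries and from 1.34 to 6.87 in the controls.

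Of 50 other tested genes of chitin and mucin metabolism, in 8 lists, edgeR called 0 over all genes, with 3 at an unadjusted p under 0.05, a share near the 4.53% of all tested genes. limma-voom, which called 0.0431% of all tested genes, also called 0. DESeq2 called 1, the chitinase gene Cht4, where it called 1.14% of all tested genes. Of the 7 tested genes of chitin synthesis, 0 had an unadjusted p under 0.05, with 4 above 0 and a median of 0.11 (-0.015 without control library A). The chitin synthase gene Chs2, which serves the gut, was present in every library, at 80.5, 48.6 and 115 CPM of total counts in 9G8-RNAi and 78.0, 197 and 40.7 CPM in control libraries. In contrast kkv, the chitin synthase gene of cuticle and trachea, was at 0.458 CPM or less. The pyrophosphorylase gene mmy, which supplies the chitin precursor UDP-N-acetylglucosamine, measured 35.2 ± 1.95 against 45.0 ± 3.82 TMM-scaled CPM (SD, n = 3). Its groups did not overlap, as for 8.59% of all tested genes, and the edgeR adjusted p was 0.918. In CPM of total counts the mmy groups overlapped. The phosphoacetylglucosamine mutase gene nst stood at 25.6 ± 6.27 against 23.8 ± 3.67 CPM.

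Genes that break chitin down had 8 of 9 tested members below 0, where 55.7% of all tested genes were, and 2 with an unadjusted edgeR p under 0.05, where 4.53% were. Their median was -0.44, against -0.07 over all tested genes. Of those below 0, Cht11 and Hexo1 were close to it, at -0.012 and -0.021. With upper-quartile factors 6 of 9 were below 0, against 51.4% of all tested genes. Total counts only gave 9 of 9, against 74.2%. Without 9G8-RNAi library B 6 of 10 were below 0, and without 9G8-RNAi library D 9 of 9 were. The chitinase gene Cht4 measured 1.33, 2.79 and 1.58 CPM of total counts in 9G8-RNAi and 26.0, 6.53 and 4.01 CPM in control libraries A, B and D. The groups did not overlap, also in TMM-scaled CPM, where 8.59% of all tested genes did not. Its log2 fold change was -2.16 ± 0.52 (SE). The adjusted p was 0.331 in edgeR and 0.017 in DESeq2. Control library A was highest, and without it the edgeR log2 fold change was -1.58, with an adjusted p of 0.474. Over the alternatives run for Cht4 the adjusted p lay between 0.017 and 0.999. Cht9, another chitinase gene, measured 7.58, 9.41 and 8.80 CPM of total counts in 9G8-RNAi and 14.8, 29.5 and 30.0 CPM in control libraries, a log2 fold change of -1.59 ± 0.55 (SE). In TMM-scaled CPM the Cht9 groups overlapped, and the edgeR adjusted p was 0.918. Without control library D its log2 fold change was -0.86. The hexosaminidase gene Hexo1 stood at 38.0 ± 11.3 and 38.5 ± 13.4 TMM-scaled CPM (SD, n = 3). All 6 imaginal disc growth factor genes, chitinase-like proteins without known chitinase activity, had log2 fold changes below 0, with a median of -1.76 and 0 under an unadjusted p of 0.05. This direction rested on control library A, and without it all 6 were above 0, with a median of 1.40, 3 under an unadjusted edgeR p of 0.05 and 0 called. In that setting 633 of 9564 tested genes were under an unadjusted edgeR p of 0.05, 11 were called and 53% were below 0. The genes Idgf4, Idgf6 and Idgf3 measured 366, 169 and 48.3 CPM of total counts in control library A and at most 20.2, 11.0 and 5.71 CPM elsewhere.

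Among 5 tested genes of the other mucins, 0 had an unadjusted p under 0.05. Muc11A was the most abundant of them and varied widely, at 23.4, 262 and 47.5 CPM of total counts in 9G8-RNAi and 34.1, 76.8 and 4.92 CPM in control libraries, with an edgeR adjusted p of 0.918. Muc14A and Muc68Ca were at 2.56 CPM of total counts or less. Of the 14 other genes for proteins with chitin-binding domains, 6 were tested, with 4 below 0 and a median of -0.59 (-0.23 without control library A, where 7 were tested). Mur2B measured 4.31 ± 1.67 against 5.90 ± 2.27 TMM-scaled CPM (SD, n = 3), obst-E 4.75 ± 2.07 against 4.38 ± 1.14 CPM and Gasp 4.20 ± 0.173 against 4.14 ± 1.37 CPM. The 3 tested chitin deacetylase genes, Cda5, serp and verm, were at 5.57 CPM of total counts or less.

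Mucin-type O-glycosylation was represented by 10 tested genes, 3 above 0 and 7 below, with a median of -0.34 and 1, Pgant8, with an unadjusted edgeR p under 0.05. Pgant8 measured 0.667 ± 0.209 against 0.192 ± 0.151 TMM-scaled CPM (SD, n = 3), with an edgeR adjusted p of 0.918. The transferase gene Pgant6 measured 33.2 ± 9.46 against 54.1 ± 33.3 CPM, Pgant9 31.3 ± 7.73 against 44.6 ± 6.51 CPM and tgy, which belongs to the galactosyltransferases that extend such glycans, 18.8 ± 6.77 against 24.3 ± 11.9 CPM. All 4 genes of crosslinking and secretion were below 0, with a median of -1.001, but without control library A 3 were below 0 and the median was -0.10. The transglutaminase gene Tg then stood at 0.70 and Fur2 at -0.0049 on the log2 scale. The cargo receptor gene Tango1 measured 32.9 ± 10.8 against 46.8 ± 17.6 CPM and the protease gene Fur1 20.7 ± 3.66 against 28.3 ± 11.4 CPM. Fur2 reached 20.5 CPM of total counts in control library A and at most 2.97 CPM elsewhere.

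**Figure D5:**
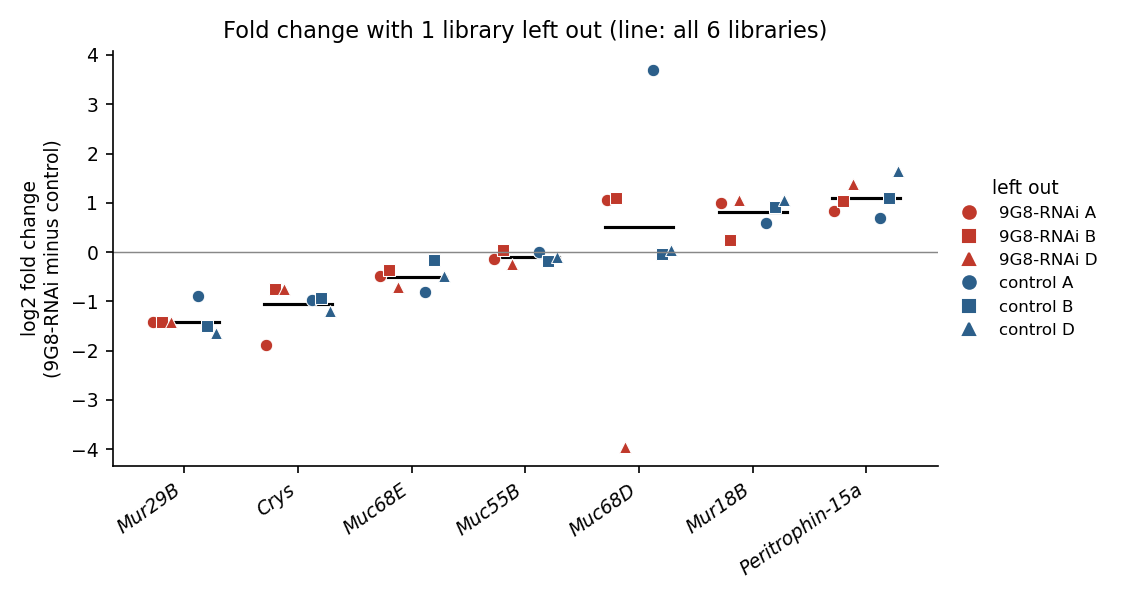
Log2 fold change of the 7 tested genes with all 6 libraries (black line) and with 1 library left out (symbols, coloured by the group of that library). Muc68D moves from -3.96 to 3.70, while Mur29B stays between -1.64 and -0.89.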

How the data were processed

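Whole-number read counts per gene were deposited for 6 libraries, with the summed exonic length of each gene per the file headers. They were made with STAR 2.5.2b, featureCounts of Subread 1.5.2 and Trimmomatic 0.36 on build BDGP6, per the submitters' processing notes. For the strand setting and multiply mapped reads, settings are not given in the sources. Symbols came from the Ensembl annotation, in which 17137 of 17411 identifiers were found, and 216 others were named by position. Coordinates are those of the files. The symbol dcy was matched to Crys through a RefSeq synonym.

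Groups were compared in edgeR 4.0.16 (R 4.3.3) with filterByExpr, TMM scaling, the robust quasi-likelihood test and Benjamini-Hochberg adjustment over all tested genes. TMM factors ran from 0.635 to 1.68. SE is the log2 fold change over the root of its F statistic. For the likeness of profiles, log2 CPM had a prior count of 2. The edgeR step was tested on simulated data. The alternatives were other factors (upper-quartile, RLE, or total counts only), other filters, DESeq2 1.42.0, limma-voom (limma 3.58.1), the replicate letters as a block, and each library left out. All 10 genes are described. Of each other list the 3 highest in mean CPM are named, as none held a gene called by edgeR, and genes beyond these are marked where they were picked after their values were seen, as were kkv and Pgant8. The genes and lists were chosen with earlier results of these data known. Pgant11 and Pgant13 were not matched. Counting error alone underlies the floor of 3 counts.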

Additional observations from a re-analysis of the deposited data

How the results depend on the processing

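Of the 7 tested genes 0 passed in any alternative run, and DESeq2 gave no p for Muc68D. The median of their log2 fold changes, -0.11 with all libraries, was -0.44 with the replicate letters as a replicate block and ran from -0.70 to 0.050 with single libraries left out. With total counts only the median of all tested genes moved to -0.33. In that setting 3 of the 7, Mur29B, Peritrophin-15a and Crys, had an unadjusted edgeR p under 0.05, where 297 of 9285 genes did. Muc68D turned to -0.97 with the replicate block and ran from -3.96 to 3.70 with single libraries left out, and it was not tested with the filter of over 1 CPM in 3 libraries. Muc55B ran from -0.24 to 0.050 with single libraries left out and was -0.39 with total counts only, and no other member changed direction. Among the other lists, the imaginal disc growth factor genes turned from a median of -1.76 to 1.40 without control library A. The genes called over all tested genes, 11 with all libraries, numbered 17 with total counts only, 50 with no low-count filter, 104 with DESeq2, 4 with limma-voom, 0 with the replicate block (217 under an unadjusted p of 0.05) and from 0 to 11 with single libraries left out. The cause was not tested. For the replicate letters the titles give no meaning. Deviations from group means correlated across genes at -0.018, -0.347 and -0.46 for same-lettered libraries, and from -0.165 to 0.496 for the other pairs. The deviations of the 3 libraries of a group sum to 0, so these values cannot decide whether the letters mark pairs. Muc18B, Peritrophin-A and Peritrophin-15b had too few counts to be tested for a difference, and the reason for their low counts was not tested.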
